A study of Mus musculus with 3 samples.

Results

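Alternative 5′ splice sites (A5SS) were examined in hippocampal RNA of 3 mice. In such an event the 3′ end of an exon is cut at either of a pair of sites, so that the long form of the exon carries an extension that the short form lacks. The events were those listed in at least 1 of the 3 A5SS tables, matched by gene symbol, chromosome, strand and all coordinates. No PSI or difference entered this choice, but no listed event had a form at 0 in both libraries of its pair, so listing depended on the counts of both forms. This gave 622 events in 499 gene symbols, out of 8727 splicing events of 5 types. All 622 had the layout of the event type, since both exon forms shared their 5′ end and differed at the 3′ end. The mice were wild type C57BL/6J animals of 10 weeks, with 1 mouse in each group. Each hippocampus had received adeno-associated virus of serotype 9 (AAV9), which per the methods of the study was placed in the CA1 region on both sides and expressed Egfp with CUG repeats in its 3′-UTR. The virus carried 10 repeats and was given with vehicle (CUG10 + vehicle), or carried 300 repeats and was given with vehicle (CUG300 + vehicle) or with CWG-cPIP (CUG300 + CWG-cPIP). CWG-cPIP is a cyclic pyrrole-imidazole polyamide that binds CAG and CTG repeat DNA. No group without virus, and none given CWG-cPIP with 10 repeats, was analysed here.

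A 5′ splice site is the boundary of an exon with the intron that follows it. U1 small nuclear RNA pairs with the last exon bases and the opening intron bases, which nearly always begin with GT, and SR proteins and hnRNPs help to decide which of neighbouring sites is used. In transcripts the site nearer to the start of the exon is called proximal here and gives the short form, and the site farther downstream is called distal and gives the long form. An extension whose length is a multiple of 3 keeps the reading frame of a coding exon, and other lengths shift it. Long CUG repeats in RNA are known to bind muscleblind-like proteins, which regulate splicing in brain and muscle, and this is why splicing was measured in this model. Percent spliced in (PSI) is given as a fraction from 0 to 1 and is the share of the long form after the reads of each form are divided by the effective length of that form.

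The sequences below show short extensions in coding sequence, or across its border with a UTR for Hdac5. These had among the highest counts of their class or were named for a difference between libraries. Exon bases common to both forms are in lower case, the extension is in capitals, and intron bases after the distal site follow in lower case where an annotated transcript covers them. They were read from GENCODE M21 transcripts of build mm10, and each is written 5′ to 3′ on the strand of the gene. In each, the capitals begin with GT, the opening intron bases of the proximal site.
Vdac3, chr8:22587550-22587552, minus strand: ggagtgGTG
Hdac5, chr11:102195948-102195951, minus strand: ccccagGTAAgcagct
Clta, chr4:44013003-44013008, plus strand: cgggagGTCCGG
Ddx17, chr15:79531672-79531677, minus strand: gaggggGTAAGGgtaagt
Psmd4, chr3:95033909-95033917, minus strand: ctgaagGTGAAAGAGgtggat
Enpp2, chr15:54862498-54862509, minus strand: gataagGTAGAGCCAAAG
U2af2, chr7:5075228-5075239, plus strand: acgctgGTGAGCCTCCCG

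For longer extensions only the 9 bases around each site are shown, the last 3 exon bases and the opening 6 intron bases, with the opening 2 intron bases in capitals. These are events that were named for a difference between libraries or that had high counts and both sites readable.
Bcl11a proximal, extension chr11:24163289-24164888, plus strand: cggGTtggt
Bcl11a distal: cttGTgagt
Sqstm1 proximal, extension chr11:50202399-50202512, minus strand: cagGTgaac
Sqstm1 distal: cagGCatgt
Dcaf11 proximal, extension chr14:55561420-55561442, plus strand: cagGTactg
Dcaf11 distal: cagGTaact
Ccpg1 proximal, extension chr9:73012993-73013326, plus strand: cagGTatgt
Ccpg1 distal: cagGTcggt

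Extensions ran from 2 to 2523 nt, with a median of 45 nt and quartiles of 18 and 128 nt. Extensions of 12 nt or less made up 119 events. Among these, 64 had a length divisible by 3 and 55 did not. The 503 longer extensions held 226 multiples of 3 and 277 other lengths. Lengths of 3 nt (17 events), 4 nt (16), 6 nt (14), 9 nt (19) and 12 nt (14) were the most common of the short ones, while 7 nt and 8 nt had 5 and 3 events. Over all lengths 290 extensions (46.6%) were multiples of 3, and 165 and 167 left a remainder of 1 and 2.

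**Figure D1:**
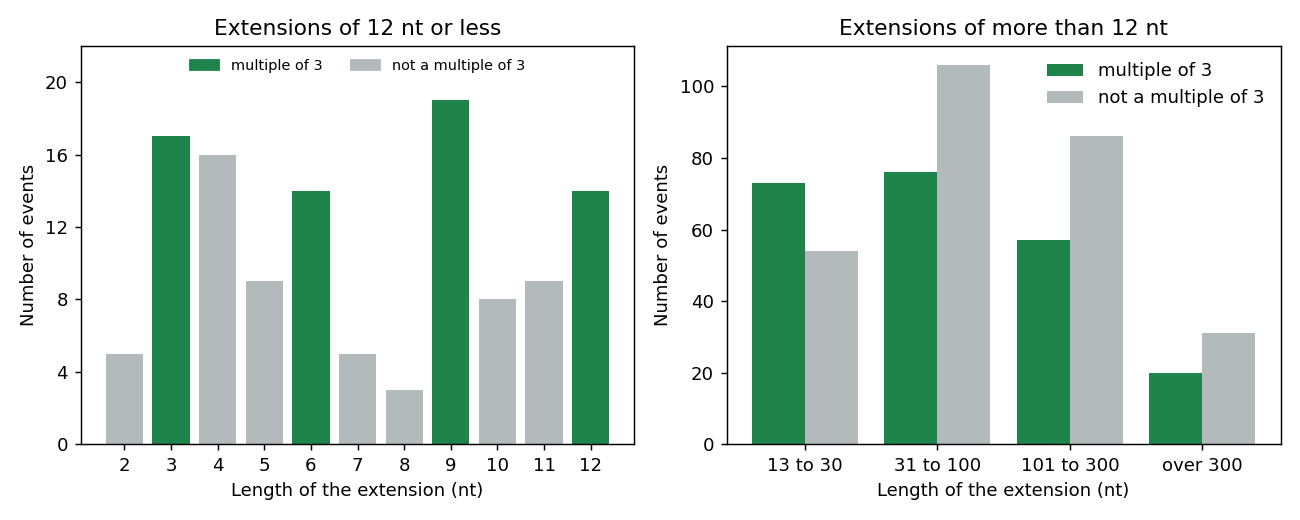
Number of A5SS events (vertical axis) by length of the extension in nt (horizontal axis), for lengths of 12 nt or less on the left and for longer ones in 4 bins on the right, with multiples of 3 in green and other lengths in grey. Multiples of 3 and the 4-nt length stand out among short extensions, and other lengths outnumber multiples of 3 from 31 nt on.

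The frame of an extension went with its place in the transcript. Of 272 extensions that were coding in at least 1 annotated transcript, 185 (68.0%) were multiples of 3. Of 229 that lay in a 5′ UTR and were coding in no transcript, 66 (28.8%) were. Extensions that joined coding sequence and UTR numbered 62, with 20 multiples of 3 (32.3%), and 9 lay in a 3′ UTR, 20 in noncoding transcripts and 30 in no annotated exon. An extension inside which the annotated coding sequence ended counted as joined, unless another transcript had it wholly coding. The shares of multiples of 3 therefore depend partly on how places were defined. The median length was 27 nt in coding sequence and 75 nt in 5′ UTRs. By class, 56 of 64 short multiples of 3 were coding (87.5%), against 16 of 55 short extensions of other lengths (29.1%), 129 of 226 long multiples of 3 (57.1%) and 71 of 277 long extensions of other lengths (25.6%). In 272 events (43.7%) the extension lay only in exons that open a transcript. Such places held 12.5% of short multiples of 3 and 58.5% of long extensions of other lengths. Only 15 extensions (2.41%) lay wholly inside an intron that the retained intron tables list.

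Both junctions were annotated in 536 of 622 events, the long form's junction in 584 and the short form's in 570. The events were not all separate, since 87 genes had more than 1 event and together held 210. The 622 events used 583 distinct pairs of sites, and 75 events shared their pair of sites with another event that differed in the rest of its coordinates. Such events share reads and are not independent. Cd2bp2 had the most, with 6 events.

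The letters at the sites were readable for 581 proximal and 231 distal sites, because intron bases are known here only where another annotated transcript covers them. Proximal sites began with GT in 560 and GC in 21 (3.61%). Distal sites began with GT in 220 and GC in 11 (4.76%). Of 250183 annotated exon ends, 35902 were readable in the same way, and these need not stand for all annotated ends. Among the 35902, 96.4% began with GT and 2.48% with GC. The most frequent letters at each position of those ends gave CAGGTAAGT, with the intron from the fourth letter on. This full sequence stood at 0.593% of the readable annotated ends and at none of the 581 proximal or 231 distal sites. A log-odds score was summed over the 9 positions from the letter frequencies of the readable annotated ends. It is in log2 units, and a higher score is nearer to the common letters. The distal minus proximal score had a median of 0.10 over the 231 events with both sites. The distal site scored higher in 118 events and the proximal site in 112. By class this median was 1.08 (n = 19) for short multiples of 3, 1.12 (n = 28) for other short lengths, 0.09 (n = 74) for long multiples of 3 and -0.13 (n = 110) for other long lengths. For Hdac5 the proximal site shown above scored 10.77 and the distal site, which begins with GC, scored -2.55. For Sqstm1 the scores were 7.35 for the proximal and 4.72 for the distal site, which also begins with GC.

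Site score and use were only loosely related. Over the 51 events with both sites readable and at least 20 counts in each library, Pearson's r of the score difference with PSI was 0.28 in CUG10 + vehicle, 0.21 in CUG300 + vehicle and 0.21 in CUG300 + CWG-cPIP, and Spearman's rho was 0.21, 0.10 and 0.06. These are descriptions across events of the same libraries, in which some events share a site. Among the 27 events with the higher-scoring distal site, 18 had a PSI above 0.5 in CUG10 + vehicle. Among the 24 with the higher-scoring proximal site, 10 had a PSI below 0.5 there. Median PSI of the 27 and the 24 events was 0.886 and 0.751 in CUG10 + vehicle, 0.689 and 0.701 in CUG300 + vehicle, and 0.783 and 0.814 in CUG300 + CWG-cPIP. For the proximal score alone, over 116 events, r with PSI was -0.27, -0.23 and -0.26 in the same order. A distal site is readable only where another transcript covers it, and reads of that transcript inside the extension count for the long form.

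Depth was low at A5SS events. The 533 events that had counts in every library were compared for depth, and the totals were 23325 counts in CUG10 + vehicle, 17087 in CUG300 + vehicle and 22162 in CUG300 + CWG-cPIP, with medians of 12, 8 and 14 counts per event. At least 20 counts in each of the 3 libraries were reached by 122 events of 102 genes, and the descriptions of levels below use these. They were 11 short multiples of 3, 10 other short lengths, 49 long multiples of 3 and 52 other long lengths. Every PSI is given with its 95% interval in parentheses (Clopper-Pearson, carried through the lengths). It covers counting error only, since each group had 1 library. Reads had no molecular identifiers, so duplicate reads could not be told apart and would make the interval too narrow. There was 1 mouse per group, so no difference could be checked against replicates, and the exact tests below compare the reads of 2 libraries, not the conditions.

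Among the 122 events with enough counts, those that used both sites in measurable amounts slightly outnumbered the rest. Every listed event had counts of both forms in its pair, so use of both sites is partly built into the set. A PSI from 0.1 to 0.9 was found in 62 of 122 events (50.8%) in CUG10 + vehicle, 63 (51.6%) in CUG300 + vehicle and 67 (54.9%) in CUG300 + CWG-cPIP. At the same depth 52.5% to 56.6% of 198 alternative 3′ splice sites, and 14.8% to 19.3% of 2249 skipped exons, lay in this range. The median PSI of A5SS events was 0.769 in CUG10 + vehicle, 0.707 in CUG300 + vehicle and 0.742 in CUG300 + CWG-cPIP. Medians were lowest for the 10 short events of other lengths, at 0.304 in CUG10 + vehicle, 0.283 in CUG300 + vehicle and 0.292 in CUG300 + CWG-cPIP. Short multiples of 3 (0.696, 0.724 and 0.612) were about level with long multiples of 3 (0.733, 0.679 and 0.697), and long events of other lengths had 0.825, 0.822 and 0.817. Here and below, unless a library is named, values run from CUG10 + vehicle to CUG300 + vehicle to CUG300 + CWG-cPIP. Counts include reads inside the extension, for which a short extension leaves little room.

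Extensions with a stop codon in the frame of the short form had a lower median PSI than those without. For 298 events an annotated coding transcript with the short form gave the frame, and the extension read on in that frame held a stop codon in 69 (23.2%). A stop was present in 0 of 53 short multiples of 3, 2 of 16 other short lengths, 28 of 146 long multiples of 3 and 39 of 83 other long lengths. With at least 20 counts in each library, 19 events of 15 genes had a stop and 49 events of 44 genes had none. The median PSI of events with a stop was 0.091 in CUG10 + vehicle, 0.071 in CUG300 + vehicle and 0.161 in CUG300 + CWG-cPIP. Without a stop it was 0.771, 0.724 and 0.728. Of the 19 events with a stop, 10, 10 and 8 had a PSI under 0.1, and 5, 5 and 6 had one over 0.5. The 2 sets thus overlapped. Atp2a2, the calcium pump of the endoplasmic reticulum, had a stop in its 1410-nt extension and PSI of 0.984 (0.946 to 0.998), 1.000 (0.933 to 1.000) and 0.992 (0.958 to 1.000). That extension spans coding sequence and UTR, and any read inside it counts for the long form, whether or not the distal site was cut. In CUG10 + vehicle it had 2528 long-form and 2 short-form counts. Rps27, a ribosomal protein of the small subunit, stood at the other end with a 229-nt extension and PSI of 0.003 (0.002 to 0.006), 0.003 (0.002 to 0.005) and 0.004 (0.003 to 0.007). In the annotated long form this extension lies in a noncoding transcript, and that of Atp5c1 lies in a 5′ UTR. Their stops are thus read only in the frame of the short form. The sets differed in length, with medians of 95 nt and 27 nt over the 69 and 229 events. Over the 19 and 49 events whose PSI was compared, the medians were 228 nt and 39 nt. A restriction to 13 to 100 nt, chosen after seeing the data, left 5 events of 4 genes with a stop and 23 events of 19 genes without. The median PSI was 0.159, 0.138 and 0.161 with a stop, and 0.635, 0.553 and 0.673 without. Lengths still differed there, with medians of 61 nt and 39 nt, so the part of length in the PSI gap was not settled.

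**Figure D2:**
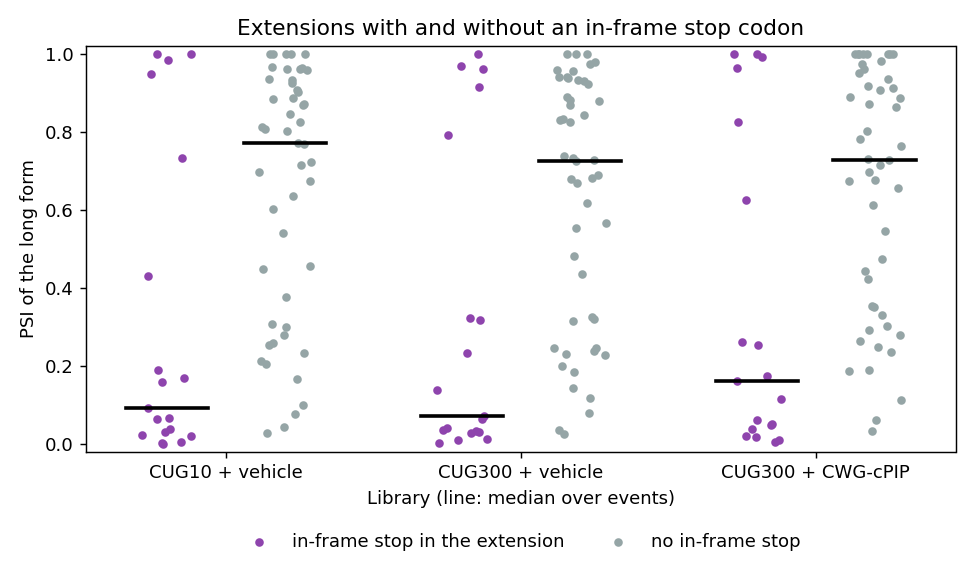
PSI of the long form (vertical axis, 0 to 1) for A5SS events that had 20 or more counts in every library, by library (horizontal axis), with a point per event in purple where the extension holds an in-frame stop codon (19 events) and in grey where it holds none (49 events), and a line at the median. Medians lie from 0.071 to 0.161 with a stop and from 0.724 to 0.771 without, and a few events with a stop reach a PSI near 1.

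The libraries also differed in RNA of cell type markers. Markers were summed over splicing events of all 5 types with counts in all 3 libraries, as CPM, the counts scaled to the same total of those events in each library. Neuron markers had 5 of 9 genes measured, and their summed level was 9386 CPM in CUG10 + vehicle, 2940 in CUG300 + vehicle and 9376 in CUG300 + CWG-cPIP. All 5 were lower in CUG300 + vehicle than in CUG10 + vehicle. Microglia and immune markers (6 of 11 measured) summed to 2835, 19940 and 4921 CPM. Choroid plexus markers were measured at Ttr, with 171, 67703 and 112 CPM, and at Enpp2, with 610, 3581 and 605 CPM. Astrocyte markers (3 of 8) summed to 663, 1464 and 1266 CPM, but only Gfap was higher in CUG300 + vehicle than in CUG10 + vehicle, and Fgfr3 had 130 and 47.6 CPM. Endothelial markers (2 of 4) summed to 294, 474 and 492 CPM, with Ly6c1 higher and Pecam1 lower in CUG300 + vehicle. In bulk tissue, fewer cells of a type and less RNA per cell cannot be told apart. The part of these differences in the PSI differences of CUG300 + vehicle was not tested. No neuron, microglial or endothelial marker had an A5SS event.

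Among short multiples of 3, Vdac3, a channel of the outer mitochondrial membrane, stood apart in CUG300 + vehicle. Its 3-nt extension had 73 long-form counts of 78 in CUG10 + vehicle, 36 of 49 in CUG300 + vehicle and 51 of 56 in CUG300 + CWG-cPIP. The PSI was 0.933 (0.852 to 0.978), 0.727 (0.580 to 0.845) and 0.907 (0.797 to 0.969). The interval of CUG300 + vehicle lay below that of CUG10 + vehicle and overlapped that of CUG300 + CWG-cPIP. Clta, the clathrin light chain A of the endocytic coat, was almost always cut at the distal site, with a PSI of 0.962 (0.919 to 0.986), 0.941 (0.891 to 0.973) and 0.982 (0.938 to 0.998) for its 6-nt extension. Psmd4, the ubiquitin receptor of the proteasome, used the distal site of its 9-nt extension less often than the proximal one, with a PSI of 0.255 (0.184 to 0.336), 0.324 (0.254 to 0.4) and 0.235 (0.147 to 0.345). The intervals of Clta and Psmd4 overlapped in every pair of libraries.

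U2af2 encodes the large subunit of U2AF, which binds the polypyrimidine tract at 3′ splice sites. Its 12-nt extension had a PSI of 0.258 (0.173 to 0.359) in CUG10 + vehicle, 0.238 (0.151 to 0.347) in CUG300 + vehicle and 0.293 (0.201 to 0.4) in CUG300 + CWG-cPIP, with overlapping intervals. Enpp2, the secreted lipid enzyme autotaxin and a choroid plexus marker, had 78, 235 and 62 counts at a 12-nt extension. Its PSI was 0.826 (0.717 to 0.906), 0.724 (0.660 to 0.782) and 0.764 (0.634 to 0.867), again overlapping, although the library with the most Enpp2 reads was CUG300 + vehicle. Tcf4, a basic helix-loop-helix transcription factor, had a 12-nt extension with a PSI of 0.696 (0.507 to 0.849), 0.868 (0.666 to 0.972) and 0.612 (0.428 to 0.778).

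Short extensions of other lengths had PSI from near 0 to near 1. Fkbp1a, a prolyl isomerase that binds rapamycin, was cut at the distal site of a 4-nt extension in its 3′ UTR at a PSI of 0.977 (0.953 to 0.991), 0.981 (0.951 to 0.995) and 0.980 (0.954 to 0.993). Hdac5, a class IIa histone deacetylase, used the distal site of its 4-nt extension at only 0.037 (0.014 to 0.079), 0.029 (0.011 to 0.061) and 0.061 (0.017 to 0.15). This extension holds an in-frame stop, and its distal site had the low score given above. Rbm3, a cold-induced RNA-binding protein, had a PSI of 0.345 (0.263 to 0.434), 0.258 (0.180 to 0.350) and 0.299 (0.227 to 0.380) at a 4-nt extension in its 3′ UTR. Rab3a, a small GTPase of synaptic vesicles, had 59 of 214, 15 of 86 and 43 of 178 counts for a 5-nt extension in its 5′ UTR, and a PSI of 0.263 (0.206 to 0.326), 0.165 (0.095 to 0.259) and 0.230 (0.171 to 0.297). Atp5g3, a subunit of the mitochondrial ATP synthase, stayed between 0.261 and 0.308 at a 10-nt extension in its 5′ UTR. None of these 5 genes had intervals that parted in any pair.

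**Figure D3:**
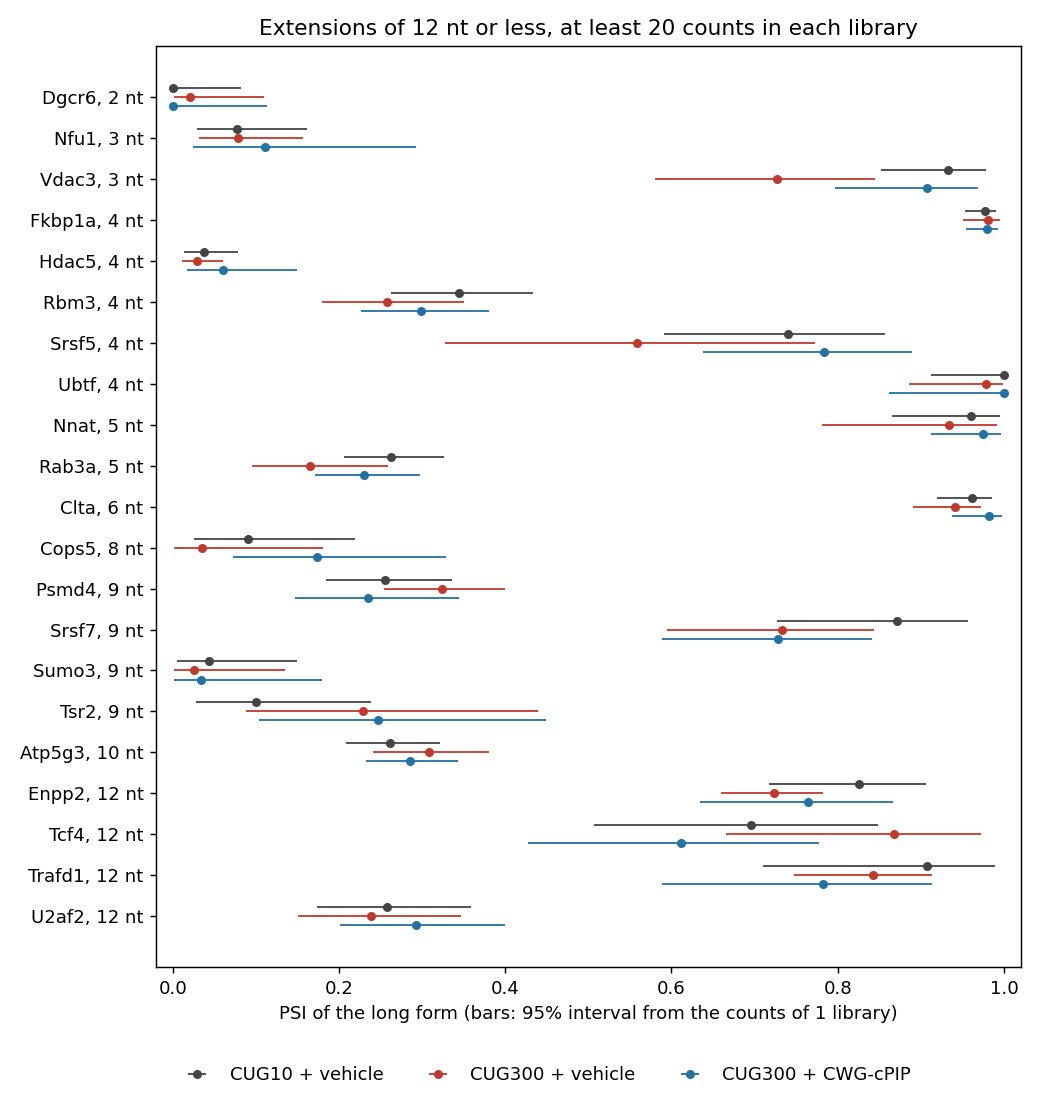
PSI of the long form (horizontal axis, 0 to 1) with 95% intervals from the counts of 1 library, for the 21 A5SS events with extensions of 12 nt or less and at least 20 counts in each library, 3 libraries per event in different colours. Events lie all along the scale, and only the Vdac3 interval of CUG300 + vehicle is clear of that of CUG10 + vehicle.

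Among long multiples of 3, Klc1, a light chain of the motor kinesin, had a 27-nt coding extension listed with 4 next exons. The event with most counts had a PSI of 0.233 (0.199 to 0.269) in CUG10 + vehicle, 0.231 (0.189 to 0.277) in CUG300 + vehicle and 0.351 (0.289 to 0.417) in CUG300 + CWG-cPIP. The interval of CUG300 + CWG-cPIP lay above those of the other libraries. The differences were 0.118 (0.049 to 0.190) from CUG10 + vehicle, with a Fisher's exact p adjusted over all event types of 0.28, and 0.120 (0.046 to 0.195) from CUG300 + vehicle, with an adjusted exact p of 0.193. The other Klc1 events, singled out after their values were seen, had a PSI of 0.635 (0.583 to 0.685), 0.566 (0.506 to 0.625) and 0.673 (0.590 to 0.750), of 0.846 (0.750 to 0.917), 0.888 (0.786 to 0.953) and 0.888 (0.761 to 0.962), and of 0.966 (0.883 to 0.996), 0.958 (0.860 to 0.995) and 1.000 (0.893 to 1.000). The PSI intervals of these events overlapped in every pair. For the event at 0.635 the difference of CUG300 + CWG-cPIP minus CUG300 + vehicle was 0.107 (0.008 to 0.2). Sqstm1, the autophagy receptor p62, had a 114-nt coding extension with PSI of 0.768 (0.720 to 0.813), 0.670 (0.613 to 0.725) and 0.801 (0.747 to 0.849). CUG300 + vehicle was lowest, and its interval lay below that of CUG300 + CWG-cPIP. CUG300 + vehicle minus CUG10 + vehicle gave -0.098 (-0.169 to -0.027), with an unadjusted exact p of 0.00821 that did not pass adjustment. The difference of CUG300 + CWG-cPIP minus CUG300 + vehicle was 0.131 (0.057 to 0.203), with an adjusted exact p of 0.107. Adjusted over events with at least 20 counts alone, the exact p of Sqstm1 was 0.0424.

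Among the other long multiples of 3, Hnrnpc, an hnRNP that binds nascent RNA, had a PSI of 0.540 (0.439 to 0.641), 0.435 (0.337 to 0.540) and 0.423 (0.330 to 0.523) at a 39-nt coding extension. Cnbp, a zinc finger protein whose gene carries the repeat of myotonic dystrophy type 2 in humans, had 0.602 (0.530 to 0.672), 0.553 (0.488 to 0.618) and 0.547 (0.475 to 0.618) at a 21-nt coding extension. Add1, the membrane skeleton protein adducin, had 0.307 (0.222 to 0.408), 0.201 (0.115 to 0.320) and 0.303 (0.227 to 0.391) at a 93-nt coding extension. Celf4, a neuronal RNA-binding protein, had 0.675 (0.513 to 0.815), 0.481 (0.273 to 0.702) and 0.697 (0.568 to 0.809) at a 30-nt coding extension. The intervals of these genes overlapped in every pair.

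Polr2k, a subunit of the RNA polymerases, had an extension of 132 nt and a PSI of 0.430 (0.254 to 0.642), 0.374 (0.233 to 0.550) and 0.356 (0.207 to 0.547). Hnrnpf, an hnRNP that binds G-rich RNA, had a 369-nt extension in no annotated exon and a PSI of 0.648 (0.366 to 0.904), 0.467 (0.228 to 0.778) and 0.373 (0.217 to 0.586). With Cnbp, Hnrnpc, Crk and Tex264 these were the events whose intervals overlapped throughout and whose PSI stayed nearest to 0.5. Intervals overlapped in every pair in 116 of the 122 events that had 20 or more counts in every library. The other 6 were those of Bcl11a, Klc1, Sqstm1 and Vdac3 and 2 of Ndufs8, a subunit of respiratory complex I, which was singled out after its values were seen. The share with parted intervals was not computed over all event types, so these 6 events have no background beside them. The 240-nt extension of Ndufs8 had a PSI of 0.125 (0.087 to 0.176), 0.198 (0.136 to 0.280) and 0.080 (0.048 to 0.125), and the 243-nt one had 0.137 (0.097 to 0.189), 0.228 (0.162 to 0.314) and 0.105 (0.068 to 0.155). In both, the interval of CUG300 + vehicle was clear of that of CUG300 + CWG-cPIP, and both extensions overlap and share reads.

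Long extensions of other lengths held the A5SS event that passed the adjusted exact test. Bcl11a is a zinc finger transcription factor of neurons and blood cells. Its 1600-nt extension is coding and lies in an internal exon. Long-form and short-form counts were 308 and 35 in CUG10 + vehicle, 102 and 34 in CUG300 + vehicle, and 187 and 23 in CUG300 + CWG-cPIP. The PSI was 0.280 (0.215 to 0.363), 0.117 (0.082 to 0.168) and 0.264 (0.189 to 0.367). CUG300 + vehicle lay below both other libraries with no overlap of intervals. Its difference from CUG10 + vehicle was -0.163 (-0.246 to -0.084), with an adjusted exact p of 0.0302. CUG300 + CWG-cPIP minus CUG300 + vehicle gave 0.147 (0.059 to 0.245) with an adjusted exact p of 0.147, and CUG300 + CWG-cPIP minus CUG10 + vehicle gave -0.016 (-0.122 to 0.096). Reads from anywhere inside the extension count for the long form, and any transcript that covers it adds to them. Without length division the difference from CUG10 + vehicle was -0.148.

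Dcaf11, a substrate receptor of CUL4 ubiquitin ligases, had 34 of 36, 27 of 37 and 30 of 36 counts for a 23-nt extension. The PSI was 0.928 (0.769 to 0.991), 0.673 (0.491 to 0.827) and 0.792 (0.610 to 0.918), with overlapping intervals. Crk, an adaptor with SH2 and SH3 domains, had a 170-nt coding extension with PSI of 0.457 (0.326 to 0.605), 0.618 (0.4 to 0.826) and 0.444 (0.325 to 0.578), also overlapping. 2700094K13Rik, which encodes selenoprotein H, had 0.892 (0.669 to 0.986), 0.616 (0.381 to 0.823) and 0.871 (0.617 to 0.984) at a 25-nt extension in a 3′ UTR. 1700020I14Rik, a noncoding transcript, had 0.888 (0.565 to 0.997), 0.633 (0.333 to 0.902) and 0.789 (0.578 to 0.934) at 169 nt. Its difference of CUG300 + vehicle minus CUG10 + vehicle was -0.255 (-0.551 to 0.123), and -0.113 without length division. Swi5, a DNA repair protein, and Atp5c1, an ATP synthase subunit, were near the ends of the scale in all 3 libraries. Swi5 had a PSI of 0.916 to 0.964 at 145 nt and Atp5c1 of 0.010 to 0.021 at 635 nt. Gnas, a gene of the stimulatory G protein, had 0.834 (0.737 to 0.910), 0.819 (0.674 to 0.925) and 0.871 (0.766 to 0.944) at 2303 nt. Atp5g3 had a further event at 43 nt, coding, with a PSI of 0.995 to 1.000. Tex264, a receptor for autophagy of the endoplasmic reticulum, had 0.351 to 0.448 at 200 nt.

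CUG300 + vehicle was set against CUG10 + vehicle to ask which choices of site differed when the expanded repeat was present. Of 467 listed A5SS events, 125 had at least 20 counts in both libraries. An absolute PSI difference above 0.15 was found in 14 of them (11.2%), 6 higher and 8 lower in CUG300 + vehicle. The background over all 5 event types was 9.34% of 2526 events, with 3.01% higher and 6.33% lower. The median absolute difference was 0.056 for A5SS events and 0.041 for all event types. By class, the difference was passed by 2 of 11 short multiples of 3, 1 of 11 other short lengths, 4 of 49 long multiples of 3 and 7 of 54 other long lengths. The adjusted exact p was below 0.05 in 1 A5SS event (0.214%), Bcl11a, against a background of 0.255% of 6263 events. Of the 14 differences, 4 had an interval that excluded 0. These were Bcl11a, Vdac3 at -0.207 (-0.351 to -0.074), Dcaf11 at -0.255 (-0.433 to -0.051) and 2700094K13Rik at -0.276 (-0.504 to -0.002). All 4 were lower in CUG300 + vehicle, which was also the more common direction in the background. The adjusted exact p was 0.644 for Vdac3. The unadjusted exact p was 0.0242 for Dcaf11 and 0.066 for 2700094K13Rik. The latter was above 0.05 although the interval excluded 0. Among smaller differences of named events, the interval also excluded 0 for Sqstm1, given above. The share of intervals that exclude 0 was not computed over all event types in any pair.

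CUG300 + CWG-cPIP was set against CUG300 + vehicle to ask which choices differed with the polyamide. This pair shares the CUG300 + vehicle library with the comparison before, so that a low or high value in that library enters both. Of 515 listed events 120 had at least 20 counts in both libraries, and 18 (15%) passed 0.15, with 8 higher and 10 lower in CUG300 + CWG-cPIP. The background was 11.3% of 2514 events, with 7.92% higher and 3.38% lower. The median absolute difference was 0.043 for A5SS events as for all event types. No A5SS event had an adjusted exact p below 0.05, against 0.419% of 6679 events, and 0 passed the likelihood ratio test after adjustment. An unadjusted exact p below 0.05 was found in 15 listed A5SS events (2.91%), beside 3.58% of the 6679 events of all types. Among the differences past 0.15, intervals excluded 0 for Vdac3 at 0.181 (0.031 to 0.329), Srsf5 at 126 nt with -0.223 (-0.384 to -0.031) and Tcf4 with -0.256 (-0.447 to -0.016). They also did for the smaller differences of Bcl11a, Sqstm1 and Klc1 given above. Adora1, the adenosine A1 receptor, passed 0.15 on 78 counts that were all long-form in CUG300 + vehicle and 302 of 306 in CUG300 + CWG-cPIP. Its difference of -0.187 had an interval from -0.373 to 0.286, and it was -0.013 without length division.

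CUG300 + CWG-cPIP set against CUG10 + vehicle shares a library with each of the others. Of 542 listed events 167 had at least 20 counts in both libraries, and 15 (8.98%) passed 0.15, with 6 higher and 9 lower in CUG300 + CWG-cPIP. The background was 8.56% of 3096 events, with 4.78% higher and 3.78% lower. The median absolute difference was 0.052 for A5SS events and 0.047 for all event types. No A5SS event had an adjusted exact p below 0.05, against 0.172% of 6983 events, and 0 passed the likelihood ratio test after adjustment. An unadjusted exact p below 0.05 was found in 11 listed A5SS events (2.03%), beside 2.25% of the 6983 events of all types. Past 0.15, intervals excluded 0 for Ccpg1, a receptor for autophagy of the endoplasmic reticulum, at 0.190 (0.019 to 0.336), and for Fbxo44, an F-box protein, at 0.249 (0.017 to 0.459) for a 29-nt extension. They also did for Enoph1, an enzyme of methionine salvage, at -0.188 (-0.390 to -0.023) and for St3gal5, which makes the ganglioside GM3, at -0.232 (-0.419 to -0.034). Among smaller differences of named events they did for Klc1, given above, and for Atp5c1 at -0.011 (-0.021 to -0.002). The unadjusted exact p of Fbxo44 was 0.0521, above 0.05 although its interval excluded 0. Ccpg1 had PSI of 0.721 (0.585 to 0.841), 0.832 (0.675 to 0.940) and 0.911 (0.776 to 0.981) at a 334-nt coding extension. Without length division the Ccpg1 difference was 0.048. St3gal5 had 0.388 (0.234 to 0.587), 0.301 (0.124 to 0.591) and 0.156 (0.068 to 0.309) at 212 nt. Ddx17, an RNA helicase that takes part in splicing, had a difference of 0.231 (-0.021 to 0.456) at its 6-nt extension, on 29 and 23 counts. Kansl2, part of the NSL acetyltransferase complex, had -0.227 (-0.525 to 0.149) at 339 nt, and D17Wsu92e had -0.152 (-0.313 to 0.048) at 225 nt. Without length division these were -0.05 and -0.06.

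**Figure D4:**
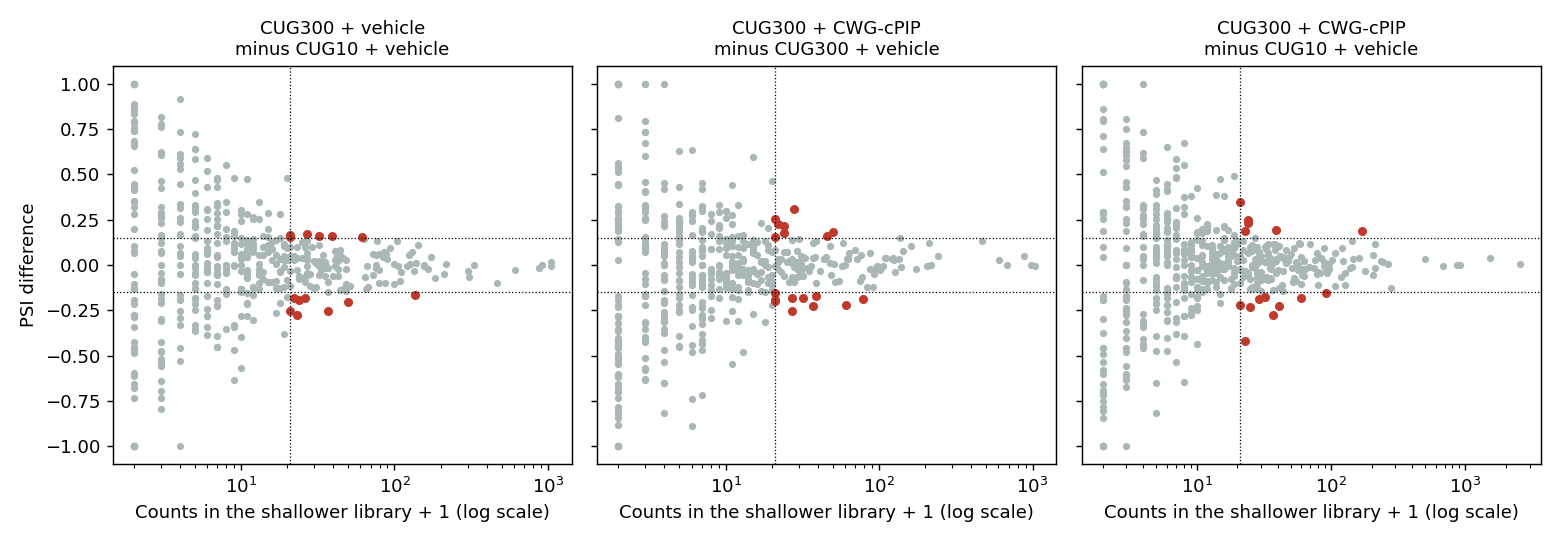
PSI difference of each listed A5SS event (vertical axis) against the counts of the shallower of the 2 libraries plus 1 (horizontal axis, log scale), for the 3 pairs of libraries, with dotted lines at 20 counts and at differences of 0.15 and -0.15. Events past both lines are red (14, 18 and 15 events), and differences spread over the whole range from -1 to 1 where counts are few.

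**Figure D5:**
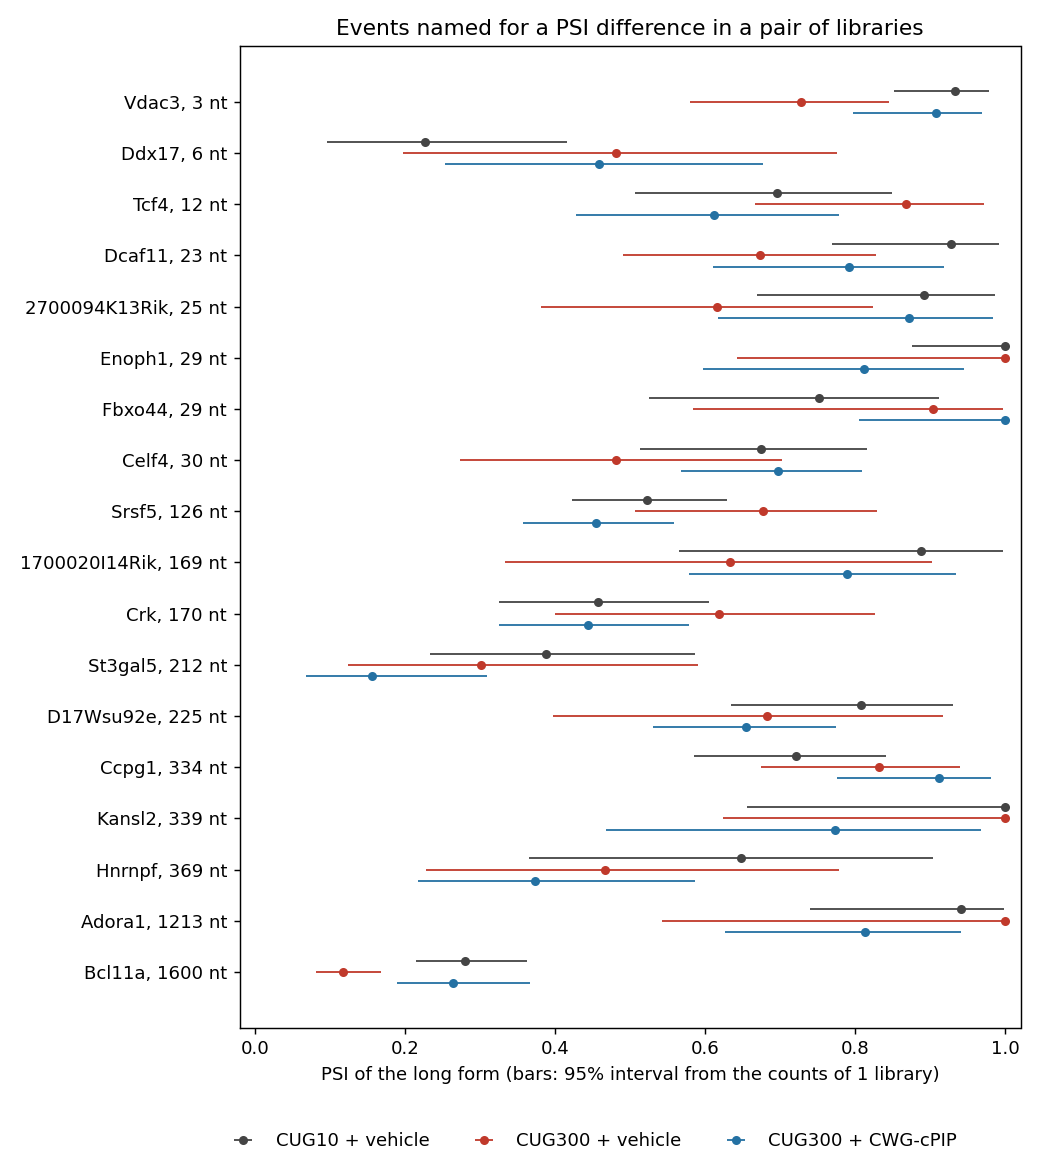
PSI of the long form (horizontal axis, 0 to 1) with 95% intervals from the counts of 1 library, for A5SS events named for a difference in a pair of libraries, ordered by length of the extension, with the 3 libraries in different colours. The Bcl11a interval of CUG300 + vehicle (0.082 to 0.168) is clear of both others, and most other events have intervals that overlap in all pairs.

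Counts set how far these differences can be read. At 20 counts or more, the interval of a difference had a median width of 0.287, 0.302 and 0.337 in the 3 pairs. Without a count minimum, 222 of 467, 248 of 515 and 220 of 542 events passed 0.15, and of these 134, 156 and 131 had fewer than 5 counts in a library. Over the 122 events that had 20 or more counts in every library, the range of PSI over the 3 libraries had a median of 0.095. It was at most 0.05 in 36 events, at most 0.1 in 67 and at most 0.15 in 98. The largest range was 0.307, at a 305-nt extension of Pwwp2b, on 44, 27 and 38 counts.

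Nested and repeated events showed how a PSI depends on the pair of sites. Those of Srsf5 at 4 and 130 nt, of Ociad1 and of 2 further Celf4 events were chosen after their values were seen. Srsf5, an SR protein, had 3 nested 5′ splice sites at the end of an exon in its 5′ UTR. The extension of 4 nt had a PSI of 0.740 (0.591 to 0.857), 0.558 (0.328 to 0.773) and 0.783 (0.638 to 0.890). The extension of 126 nt, which starts where the 4-nt one ends, had 0.523 (0.422 to 0.629), 0.677 (0.506 to 0.829) and 0.454 (0.357 to 0.559). Measured from the most upstream to the most downstream site, at 130 nt, it was 0.750 (0.621 to 0.857), 0.685 (0.516 to 0.834) and 0.751 (0.609 to 0.867). CUG300 + vehicle was thus lowest for the 4-nt and highest for the 126-nt pair of sites, and the reads of the middle site count for the long form in the former and for the short form in the latter. Ociad1, a mitochondrial and endosomal protein, had a 45-nt extension listed with a different next exon in each of 2 events. The PSI of the event with the nearer next exon was 0.190 (0.128 to 0.266), 0.323 (0.227 to 0.435) and 0.254 (0.189 to 0.330). With the farther next exon it was 0.733 (0.631 to 0.821), 0.791 (0.659 to 0.893) and 0.826 (0.731 to 0.9). The 30-nt extension of Celf4 was also listed with a next exon 3 nt longer, where it had a PSI of 0.909 (0.715 to 0.989), 0.698 (0.417 to 0.907) and 0.833 (0.660 to 0.942). CUG300 + vehicle was lowest for this extension with either next exon. A 60-nt extension of another Celf4 exon went the other way, with a PSI of 0.166 (0.105 to 0.245), 0.247 (0.141 to 0.386) and 0.280 (0.181 to 0.404). The intervals overlapped in all 3 events.

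Genes of pathways bearing on the model were taken from lists, and the share of all genes with an A5SS event was not computed beside them. Of 83 genes for SR proteins, hnRNPs and other splicing regulators, 15 had 24 A5SS events. In CUG300 + vehicle minus CUG10 + vehicle, 12 of these events had at least 20 counts, and 1 was higher and 3 were lower by over 0.15, beside 11.2% of all A5SS events past 0.15 in either direction. Their median absolute difference was 0.114, beside 0.056 for all A5SS events. It was 0.054 over 12 events beside 0.043 in CUG300 + CWG-cPIP minus CUG300 + vehicle, with 2 higher and 1 lower beside 15% of all A5SS events. In CUG300 + CWG-cPIP minus CUG10 + vehicle it was 0.072 over 13 events beside 0.052, with 0 higher and 1 lower beside 8.98%. No event of this list had an adjusted exact p below 0.05 in any pair, and several of its events share reads, those of Srsf5 among them.

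Of 49 genes known as targets in myotonic dystrophy or of muscleblind-like proteins in brain, 2 had an A5SS event, Add1 and Tcf4. Among 59 transcription factors and chromatin genes, 6 had an event, with 3 deep enough to compare in CUG300 + vehicle minus CUG10 + vehicle, 1 higher (Tcf4) and 1 lower (Bcl11a), beside 11.2% of all A5SS events. Synaptic adhesion and release genes had 5 of 61 with an event, cytoskeletal genes 5 of 58, mitochondrial genes 3 of 45, membrane channels and transporters 2 of 46, glutamate receptor and postsynaptic genes 2 of 49, and 5′ splice site recognition factors 2 of 23. In these 6 lists Vdac3, which is in 2 of them, was the event past 0.15 with at least 20 counts in either comparison with CUG300 + vehicle. In CUG300 + CWG-cPIP minus CUG10 + vehicle it was Ddx17, of the recognition factors.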

How the data were processed

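Total RNA of the hippocampus was sequenced from strand-specific libraries. The authors, as the submitters' processing notes say, trimmed reads with Trim Galore 0.6.6, aligned them with STAR 2.7.9a and RSEM 1.3.3 to mm10, and used DESeq2 1.36.0, whose gene expression results were not used here. For splicing the authors ran rMATS on each pair of libraries.

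The authors deposited counts of reads for each form of an event, on junctions and inside the alternative region, with no normalization. They deposited PSI as a fraction, and the effective lengths of the forms. The short form had a length of 74 nt, which fits reads of 75 nt, while the methods name another read length, and this was not resolved. Columns with the authors' p-values, adjusted values and PSI differences were not used. No listed event had the same form at 0 in both libraries of its pair, so absence from a table is not absence of the event.

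From the deposited counts and lengths, PSI was recomputed, with a largest deviation of 0.0005. Counts of a library in 2 tables were identical in 1271 of 1271 A5SS comparisons. The library named first is the minuend. Differences have 95% Newcombe intervals, and Fisher's exact test, two-sided, was adjusted by Benjamini-Hochberg over the listed events of all 5 types in a pair. The exact test and its adjustment were tried on simulated counts with large shifts at well-covered events and no variation between mice. That does not show how they perform at the depth of most A5SS events. Python 3.11.15 with scipy 1.17.1 was used. Annotation, frame and sequences came from GENCODE M21 (GRCm38, the same assembly as mm10), and coordinates are 1-based.

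Named events were those with an adjusted exact p below 0.05 in any pair, the 8 per pair past 0.15 at 20 counts with the interval farthest from 0, the 4 per class with most counts, the 2 per gene list with most counts, and the 6 nearest to 0.5 with overlapping intervals, each with 1 event per gene. An interval that spanned 0 had a distance of 0. Only 4, 3 and 4 events past 0.15 had an interval that excluded 0, so the remaining places of the 8 were filled from ties. 1 event that the rule names, and a marker total that includes its gene, are not reported here. Members, lists and rules were chosen with earlier results of these data known. Pairs of libraries share libraries, so their values are given side by side.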

Additional observations from a re-analysis of the deposited data

How the results depend on the processing

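The count of A5SS events past a PSI difference of 0.15 depended on the count minimum and on the size asked for. In the order CUG300 + vehicle minus CUG10 + vehicle, CUG300 + CWG-cPIP minus CUG300 + vehicle and CUG300 + CWG-cPIP minus CUG10 + vehicle, the counts of 14, 18 and 15 became 36, 39 and 32 with a minimum of 10 counts, 2, 2 and 3 with a minimum of 50, and 222, 248 and 220 with none. They became 37, 30 and 43 at a difference of 0.10 and 4, 8 and 8 at 0.20. Without length division the third count was 8. Without adjustment, 12, 15 and 11 events had an exact p below 0.05 in place of 1, 0 and 0. They were 2.57%, 2.91% and 2.03% of listed A5SS events, beside 2.75%, 3.58% and 2.25% over all event types. Adjustment over events with at least 20 counts gave 1 event in the second pair, Sqstm1. The median score difference of 0.1048 was 0 by matching positions and 0.236 in events with at least 20 counts. The median PSI of extensions with a stop became 0.1587 in CUG10 + vehicle and 0.1382 in CUG300 + vehicle at 13 to 100 nt. Without a stop it became 0.6854 in CUG10 + vehicle with a minimum of 10 counts, and 0.6345, 0.5532 and 0.673 in the 3 libraries at 13 to 100 nt. The alternatives for stops were chosen after seeing the data. The cause of these shifts was not tested. The other 29 values of these summaries stayed within 1.5 times or within 0.05. Without length division, 27 differences of named events kept their direction and stayed within their intervals, but 11 moved by over 1.5 times, all at extensions of 126 nt or more. No paired analysis was possible because each group has 1 library, and for the same reason no replicate could be left out.

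Depth limits all of this. Over the events with counts in a library, the median was 10 counts in CUG10 + vehicle, 7 in CUG300 + vehicle and 12 in CUG300 + CWG-cPIP. Each group had 1 mouse. An interval that spans 0 thus does not show that a site was used alike. Variation between mice cannot be told apart from the effect of repeats or polyamide.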
